A study of Mus musculus with 9 samples.

Results

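The genes described here encode 7 subunits of NADPH oxidase: Cybb, Cyba, Ncf1, Ncf4, Rac1, Rac2 and Nox4. They were taken by gene symbol from the deposited table of 55401 mouse genes, and each was found once. RNA was sequenced from the basal ganglia of wildtype mice in 3 groups of 3 libraries. Sham mice had a needle inserted without blood, ICH mice had whole blood injected and received the vehicle of Laminaria, and ICH+Laminaria mice had the same injection and were treated with Laminaria. Sham and ICH libraries are labelled day 3, and ICH+Laminaria 1, 2 and 3 are labelled day 4, 5 and 6, so that treatment and day cannot be told apart in that group. The study's methods describe adult male C57BL mice and autologous blood, and no source says whether the libraries of a group are separate mice, so that all p-values rest on a spread between libraries that may be technical.

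NADPH oxidase passes electrons from NADPH across a membrane to oxygen and releases superoxide. In the phagocyte enzyme, known for the oxidative burst of neutrophils, macrophages and microglia, the catalytic chain NOX2 (Cybb) sits in the membrane with its partner p22phox (Cyba), and is switched on when cytosolic subunits, among them the organizer p47phox (Ncf1) and p40phox (Ncf4), and a Rac GTPase join it. NOX4 (Nox4) is another catalytic chain that also pairs with p22phox but needs no cytosolic subunits, and is known from kidney, vessels and fibroblasts. Rac1 is made by nearly all cells and has many other partners, whereas Rac2 is the Rac GTPase of blood cells.

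Promoter sequences for 4 of the 7 members were present in the RefSeq table used (build GRCm38.p6), and are shown because Cybb, Cyba and Ncf1 rose together after ICH and Nox4 is the alternative catalytic chain. The RefSeq starts of Cybb and Nox4 lie inside the deposited gene models, which begin further upstream. Each sequence is the 250 bases before the RefSeq start of the gene, written 5′ to 3′ on the strand of the gene, with capitals marking every match to 1 of 4 motifs searched on both strands. The windows lie at chrX:9469325-9469574 (minus strand) for Cybb, chr8:122432941-122433190 (minus) for Cyba, chr5:134229626-134229875 (minus) for Ncf1 and chr7:87246399-87246648 (plus) for Nox4.
Cybb: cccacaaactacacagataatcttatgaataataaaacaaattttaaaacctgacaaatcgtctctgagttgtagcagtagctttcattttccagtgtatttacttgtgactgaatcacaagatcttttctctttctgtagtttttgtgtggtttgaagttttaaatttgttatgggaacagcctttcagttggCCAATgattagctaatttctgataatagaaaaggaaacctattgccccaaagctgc
Cyba: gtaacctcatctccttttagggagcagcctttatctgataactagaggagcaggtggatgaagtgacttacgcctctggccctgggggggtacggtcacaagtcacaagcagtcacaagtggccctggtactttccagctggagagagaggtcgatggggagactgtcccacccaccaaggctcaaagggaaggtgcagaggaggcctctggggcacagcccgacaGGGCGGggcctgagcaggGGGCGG
Ncf1: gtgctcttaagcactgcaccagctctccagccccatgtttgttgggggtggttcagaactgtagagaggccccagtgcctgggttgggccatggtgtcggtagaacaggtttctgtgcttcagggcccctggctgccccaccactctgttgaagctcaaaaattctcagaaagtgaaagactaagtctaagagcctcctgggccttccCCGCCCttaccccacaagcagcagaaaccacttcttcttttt
Nox4: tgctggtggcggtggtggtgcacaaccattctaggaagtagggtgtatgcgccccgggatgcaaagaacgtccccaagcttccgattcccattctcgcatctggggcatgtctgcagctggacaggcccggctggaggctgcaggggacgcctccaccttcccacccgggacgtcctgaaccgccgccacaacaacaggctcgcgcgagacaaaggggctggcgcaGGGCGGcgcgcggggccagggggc
Counted back from the start, Cybb holds a CAAT box (CCAAT) from -56 to -52, and Cyba holds GC boxes (GGGCGG) from -24 to -19 and from -6 to -1. Ncf1 holds a GC box on the opposite strand from -42 to -37, and Nox4 holds one from -24 to -19. The other motifs searched were GAGGAA, a sequence bound by the myeloid factor PU.1, and TATAAA, the TATA box. These exact letters are in none of the 4 windows. Other forms of the PU.1 site were not searched, so the windows may still hold such sites. Over all 32851 promoters of the table, 33.8% hold CCAAT, 32.7% GGGCGG, 23.3% GAGGAA and 12.4% TATAAA, so that the matches are a description only.

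Total deposited counts were 51307799 to 74649716 per library, and mitochondrially encoded genes took 6.01% to 7.32% of them. In every library the low counts fell on steps of 3.78 to 3.84, so that 1 sequenced fragment appears to add several counts and the totals overstate the fragments. Levels are CPM, deposited counts brought to a common library size by TMM scaling over the 9 libraries, and FPKM, which also divides by gene length, was used to compare genes. Markers of striatal neurons were present in all libraries, at a summed 2110 to 3430 CPM in sham and 1430 to 2110 CPM after ICH.

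Cybb, Cyba, Ncf1, Ncf4 and Rac2 were higher 3 days after ICH than after sham operation, whereas Rac1 did not pass the test. By edgeR's quasi-likelihood test, run on genes that averaged 0.5 FPKM or more, 6 of the 7 members were tested in ICH against sham, and 5 rose and none fell at an adjusted p under 0.05. Cybb was tested only through the ICH libraries, and of the 5 members that averaged 0.5 FPKM or more in sham, 4 rose. Over all 16414 genes tested 10.6% were called, with 7.42% called higher and 3.16% called lower. The median log2 fold change of the 6 tested members was 2.56, and that of all genes tested was 0.01. In 6 of the 7 members, all but Rac1, the lowest ICH library lay above the highest sham library, as it did for 19.5% of all genes tested.

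**Figure D1:**
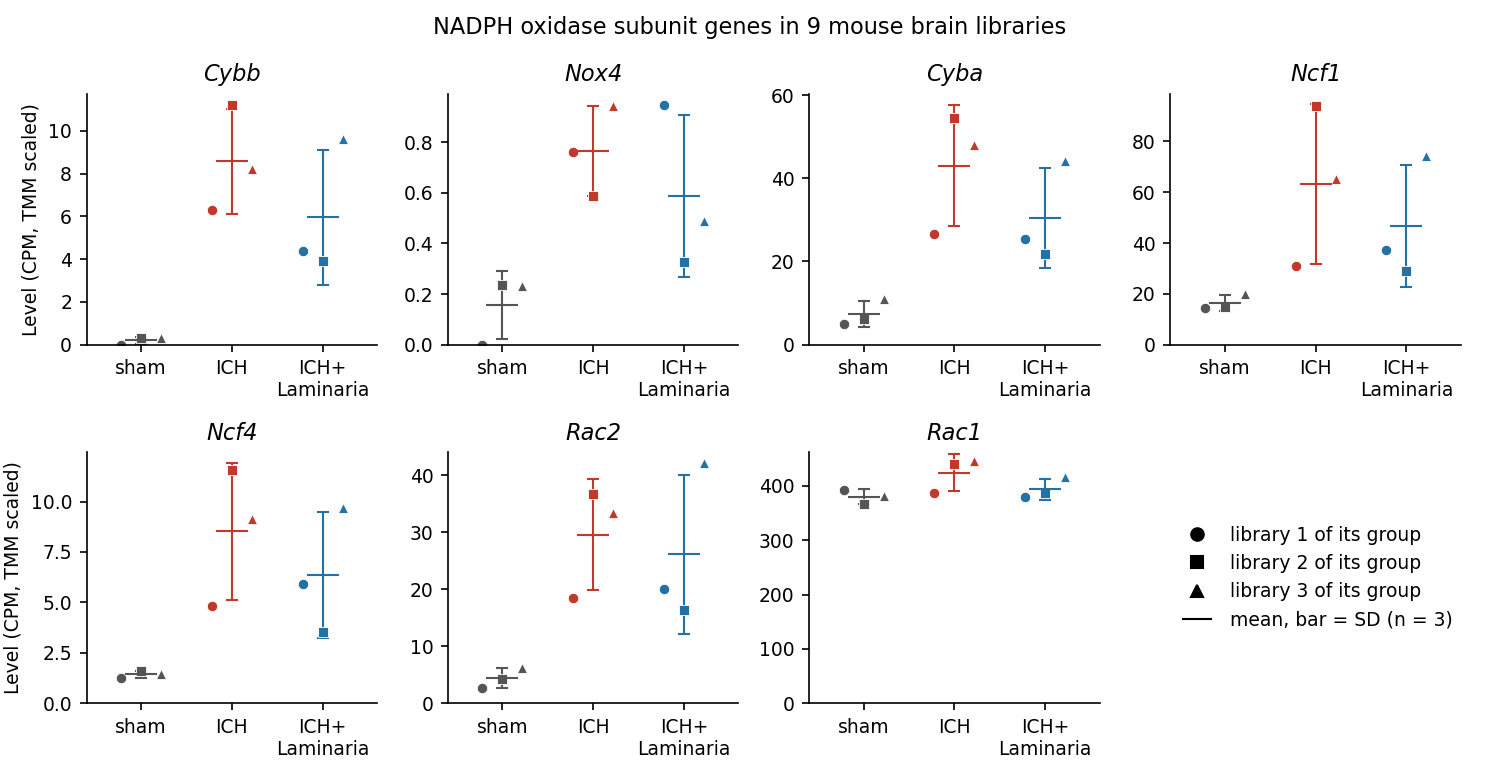
Level of each NADPH oxidase subunit gene (CPM, linear axes from 0) in the 3 sham, 3 ICH and 3 ICH+Laminaria libraries, 1 point per library, with the group mean and SD. The sham points lie below all others for every member except Rac1, and the ICH and ICH+Laminaria points overlap in all 7 panels.

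Cybb, the catalytic chain, was close to undetected in sham libraries. Cybb (ENSMUSG00000015340, chromosome X from 9435252 to 9487771 in GRCm38, minus strand) had 0, 0.320 and 0.292 CPM in sham 1, 2 and 3, and 6.32, 11.2 and 8.23 CPM in ICH 1, 2 and 3. Sham 1 held no count of Cybb, which at 3 fragments allows up to 0.159 CPM. The mean was 0.204 ± 0.177 CPM in sham and 8.58 ± 2.45 CPM after ICH (SD, n = 3 each), which on the log2 scale is a difference of 5.41 with an SE of 0.914 and a 95% interval from 3.23 to 7.59 (edgeR, adjusted p = 0.0234). Divided by the step between low counts, the sham libraries held 10 fragments of Cybb and the ICH libraries 451, which is a ratio of 45.3 after scaling to library size, with an exact 95% interval from 24.4 to 95.2 that covers counting error only. Cybb passed the filter on low values only through the ICH libraries, since its sham mean was 0.0295 FPKM.

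Cyba, the membrane partner of both catalytic chains, was already present in sham tissue. Cyba (ENSMUSG00000006519, chromosome 8 from 122424776 to 122432930, minus strand) had 4.99, 6.09 and 10.9 CPM in sham 1, 2 and 3, and 26.6, 54.5 and 48.1 CPM in ICH 1, 2 and 3. Sham 3 was the highest of its group and ICH 1 the lowest of its own, and the groups were apart. The mean rose from 7.32 ± 3.13 to 43.1 ± 14.6 CPM (SD, n = 3 each), which on the log2 scale is a difference of 2.56 with an SE of 0.383 (edgeR, adjusted p = 0.0226).

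Ncf1 and Ncf4, which encode the organizer p47phox and its partner p40phox, both rose after ICH. Ncf1 (ENSMUSG00000015950, chromosome 5 from 134220053 to 134229625, minus strand) had 14.3, 14.9 and 19.9 CPM in the sham libraries and 31.1, 93.9 and 65.1 CPM in ICH 1, 2 and 3. Its log2 fold change was 1.95 with an SE of 0.382 (edgeR, adjusted p = 0.0307). Gtf2ird2, which encodes a transcription factor, overlaps Ncf1 on the other strand and shares 408 of its 3663 exon bases, and without a stated strand setting reads there cannot be told apart. Gtf2ird2 was at 13.8 to 15.1 CPM in sham and at 19.6, 6.26 and 5.95 CPM in ICH 1, 2 and 3. With the counts of both genes added together, an alternative chosen after seeing the data, the level was 28.1 to 35.0 CPM in sham and 50.7 to 100.1 CPM after ICH, and the log2 fold change was 1.27 (adjusted p = 0.0289 from edgeR). Ncf4 (ENSMUSG00000071715, chromosome 15 from 78244801 to 78262580, plus strand) had 1.27, 1.62 and 1.44 CPM in sham 1, 2 and 3, and 4.84, 11.6 and 9.14 CPM in ICH 1, 2 and 3. The sham libraries of Ncf4 were close together and the log2 fold change was 2.56 with an SE of 0.342 (edgeR, adjusted p = 0.0221).

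Of the Rac GTPases, Rac2 rose and Rac1 did not pass the test. Rac2 (ENSMUSG00000033220, chromosome 15 from 78559167 to 78572783, minus strand) had 2.69, 4.31 and 6.18 CPM in the sham libraries and 18.4, 36.8 and 33.4 CPM in the ICH libraries. Its mean rose from 4.39 ± 1.75 to 29.5 ± 9.75 CPM (SD, n = 3 each), which on the log2 scale is a difference of 2.75 with an SE of 0.381 (edgeR, adjusted p = 0.0222). Rac1 (ENSMUSG00000001847, chromosome 5 from 143503634 to 143528036, minus strand) had 393, 366 and 381 CPM in the sham libraries and 386, 441 and 446 CPM in the ICH libraries, with ICH 1 inside the sham range. Its log2 fold change was 0.16 with an SE of 0.0842 and a 95% interval from -0.04 to 0.36 (edgeR, adjusted p = 0.249). Rac1 shares 2309 of its 4496 exon bases with Daglb, a lipase gene on the other strand, which was at 28.3 to 28.5 CPM in sham and 31.5 to 35.8 CPM after ICH. The longest stretch that transcripts of Rac1 and Rac2 have in common is 29 bases.

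Nox4, the other catalytic chain, stayed below the filter. Nox4 (ENSMUSG00000030562, chromosome 7 from 87246096 to 87398710, plus strand) had 0, 0.236 and 0.231 CPM in the sham libraries and 0.759, 0.587 and 0.943 CPM after ICH, from counts of 0, 14 and 15 against 43, 44 and 60. The groups were apart at 8 against 39 fragments, a ratio of 4.90 with an exact counting interval from 2.26 to 12.1, and the two-sided exact permutation test gave p = 0.1, the smallest that 3 against 3 libraries allows. In an edgeR fit with no filter its log2 fold change was 2.26 with an SE of 1.01 (adjusted p = 0.291), so that its difference did not pass the test. Per length, Nox4 was the lowest member in every group, at a mean of 0.0155 FPKM in sham and 0.0787 FPKM after ICH.

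These calls rested on 3 libraries a group. By edgeR, all 5 members were called without ICH 1, and Cyba, Ncf4 and Rac2 without sham 3. None of the 5 was called without sham 1, sham 2, ICH 2 or ICH 3, where the adjusted p was 0.0633 to 0.118 and the log2 fold changes stayed between 1.54 (Ncf1 without ICH 2) and 5.88 (Cybb without sham 2). With limma on log2(FPKM + 0.1) Ncf1 had an adjusted p of 0.0542.

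**Figure D2:**
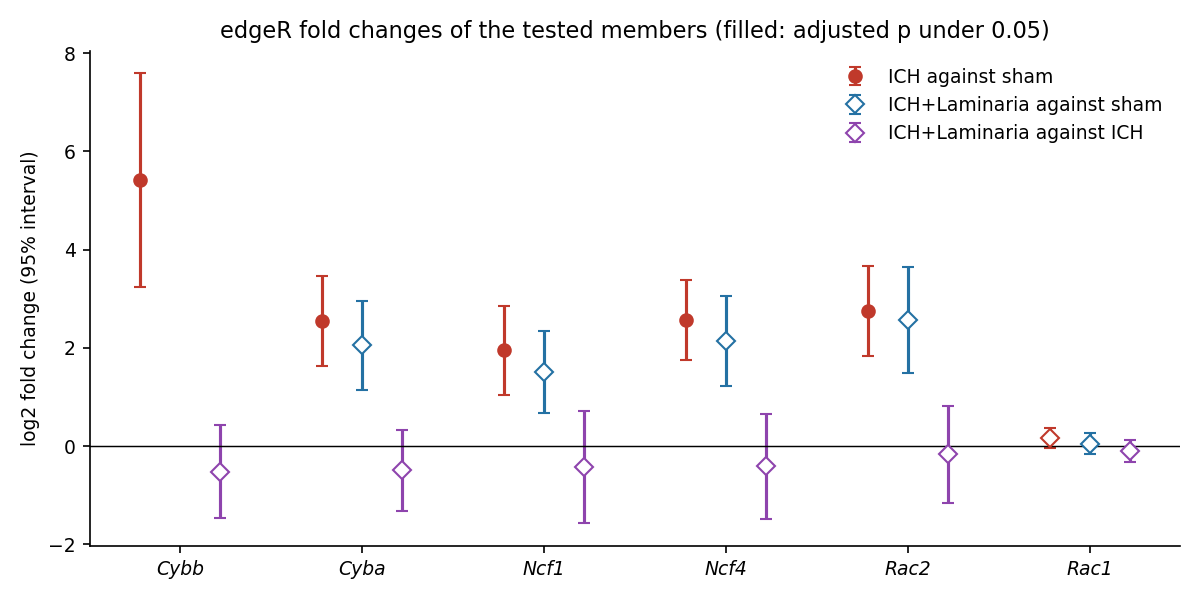
edgeR log2 fold change of each tested member in ICH against sham, ICH+Laminaria against sham and ICH+Laminaria against ICH, with 95% intervals and with filled points for an adjusted p under 0.05. The 5 filled points, all for ICH against sham, lie between 1.95 and 5.41, Rac1 lies near 0, and Cybb has no point for ICH+Laminaria against sham because it was below the filter.

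Compared per length, Rac1 was the most abundant member in every group, at a mean of 72.9 FPKM in sham, 83.9 after ICH and 78.5 in ICH+Laminaria. Cyba followed with means of 6.08, 36.8 and 26.4 FPKM, and Ncf1 with 3.85, 15.3 and 11.5 FPKM. Rac2 had 1.22, 8.45 and 7.60 FPKM, Ncf4 0.601, 3.72 and 2.82 FPKM, and Cybb 0.0295, 1.31 and 0.925 FPKM. The order of the 7 means was the same in the 3 groups, with Cybb and Nox4, the catalytic chains, last. The shares between subunits, which restate the same values as ratios, differed between the sham and ICH libraries. Rac2 made up 0.977%, 1.67% and 2.29% of the FPKM of Rac1 and Rac2 in sham 1, 2 and 3, while it made up 6.47%, 10.8% and 9.78% in ICH 1, 2 and 3. Cybb made up 0%, 0.916% and 0.460% of the FPKM of Cybb and Cyba in the sham libraries and 4.07%, 3.54% and 2.97% in the ICH libraries. In both shares the ICH and sham libraries did not overlap (two-sided exact permutation test p = 0.1 for each, the smallest possible). Of Cybb and Nox4 together, Cybb took 66.7% and 64.3% in sham 2 and 3 and 92.4% to 96.6% in the ICH libraries, and sham 1 held no count of either, so this share was not tested against sham.

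**Figure D3:**
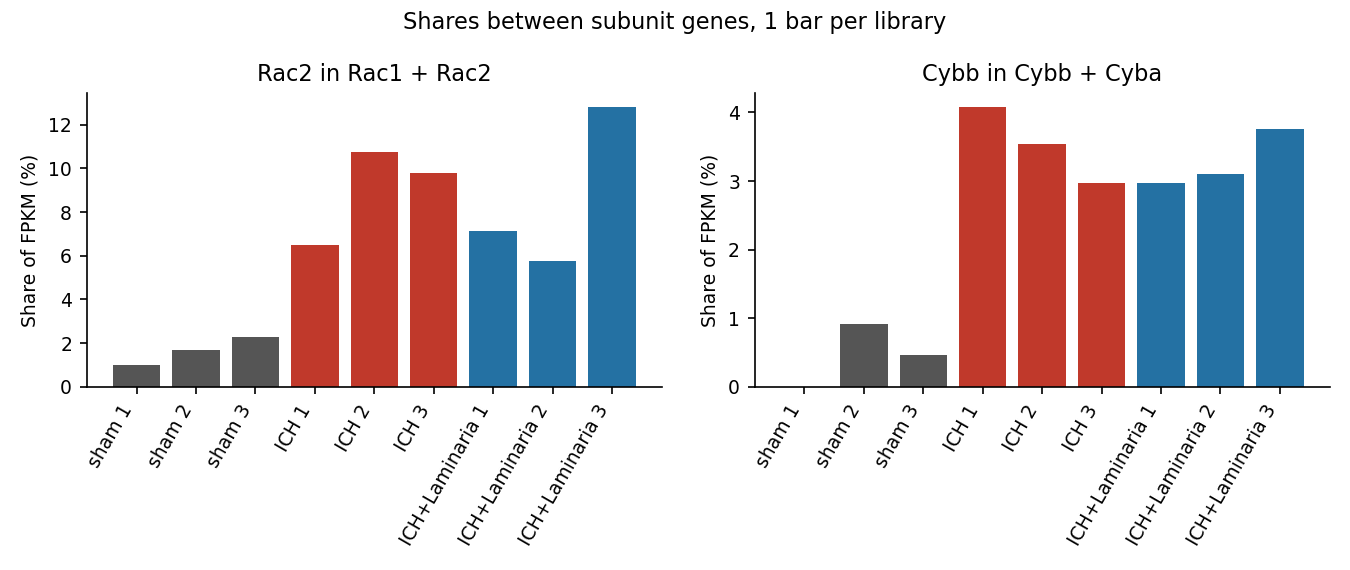
Percent of FPKM taken by Rac2 among Rac1 and Rac2 (left) and by Cybb among Cybb and Cyba (right), 1 bar per library. Rac2 lies at 0.977% to 2.29% in sham and at 5.75% to 12.8% in the other libraries, and Cybb at 0% to 0.916% and at 2.97% to 4.07%.

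Myeloid genes rose in the same libraries. Of 12 genes expressed by myeloid cells in general, 11 rose after ICH, of which Ptprc was tested only through the ICH libraries (median 2.33 on the log2 scale), and their summed level was 351 to 577 CPM in sham and 1110 to 2380 CPM after ICH. Of 10 homeostatic microglia genes 4 rose (median 1.08, 240 to 372 CPM against 485 to 858 CPM), and of 8 tested monocyte and macrophage genes 5 rose (77.5 to 84.5 CPM against 128 to 473 CPM for the list). Of these 8, 5 genes averaged under 0.5 FPKM in sham and were tested only through the ICH libraries, among them the called genes Arg1, Chil3 and F10. The 12 neutrophil genes summed to 8.77 to 13.6 CPM in sham and 22.6 to 89.1 CPM after ICH. Of 6 tested, 3 were called higher and all had groups apart, but 5 of them averaged under 0.5 FPKM in sham. Ly6g, Elane, Ngp, Camp and Ltf were at 0 to 0.16 CPM in all libraries. Csf3r, the G-CSF receptor, had 7.08 to 12.7 CPM in sham and 19.0 to 40.6 CPM after ICH, and made up most of the summed level in every sham library. Mmp8, a collagenase, had 0 to 0.123 CPM in sham and 0.865 to 4.86 CPM after ICH. Cxcr2, a chemokine receptor, had 0.167, 0 and 0 CPM in sham 1, 2 and 3, and 0, 4.37 and 1.59 CPM in ICH 1, 2 and 3.

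Other tissue components moved with the groups as well. Of 6 astrocyte genes 3 rose, and the list summed to 2510 to 3390 CPM in sham and 4520 to 7260 CPM after ICH, with a log2 fold change of 2.65 for Gfap, the intermediate filament of reactive astrocytes. Of 6 endothelial genes 2 rose (168 to 197 CPM against 235 to 275 CPM), and of 6 pericyte and smooth muscle genes 3 rose (151 to 177 CPM against 247 to 259 CPM). Of 5 neuronal genes Rbfox3 fell, and of 6 striatal neuron genes Tac1 fell. The list of 4 choroid plexus genes summed to 97.2 to 1260 CPM in sham and 1800 to 4800 CPM after ICH, and that of red blood cell genes to 12.4 to 16.2 CPM and 27.0 to 142 CPM, with no gene of either called. The part of these components, and of the myeloid and neutrophil genes, in the members' values was not tested. In bulk tissue, more cells of a type and more RNA per cell cannot be told apart.

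Each member was also set against the 12 general myeloid genes within its own library, as log2 of its CPM minus the mean log2 CPM of these genes. Cybb was 2.76 higher in ICH than in sham with sham 1 set at 3 fragments, and had -6.46, -5.71 and -6.53 in sham 1, 2 and 3, against -3.22, -3.46 and -3.76 in ICH 1, 2 and 3. Rac2 was 0.44 higher (-2.38, -1.96 and -2.12 against -1.68, -1.74 and -1.74) and Cyba 0.24 higher (-1.49, -1.46 and -1.31 against -1.15, -1.17 and -1.21), both with groups apart. Their log2 fold changes in ICH against sham, 2.75 and 2.56, lay inside those of the 12 genes, from 0.58 (Coro1a) to 4.9 (Lyz2). That of Cybb, 5.41, lay above this range, but its 95% interval from 3.23 to 7.59 held the 4.9 of Lyz2. Ncf4 differed by 0.15 and Ncf1 by -0.50 with overlapping groups (exact permutation test p = 0.9 and p = 0.2). Rac1 was 2.17 lower relative to the myeloid genes, at 3.82 to 4.80 in sham and 1.84 to 2.71 after ICH. The 12 genes themselves rose by a median of 2.33, so a gene with little change, as Rac1 at 0.16, must lie lower here. The exact permutation p was 0.1 for Cybb, Rac2, Cyba and Rac1, the smallest that 3 against 3 libraries allows, so none could pass 0.05. Set against the homeostatic microglia genes instead, Ncf1 was 0.80 higher after ICH, Cyba 1.55 higher and Cybb 4.06 higher, so that the direction for Ncf1 depended on the reference genes.

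**Figure D4:**
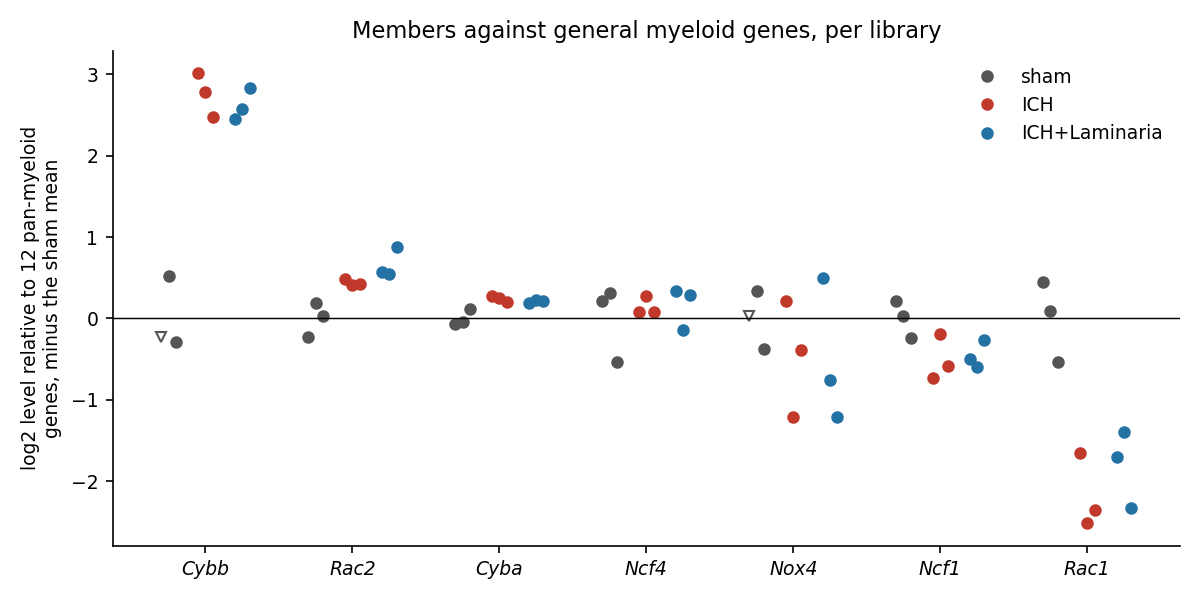
Level of each member relative to the mean of 12 general myeloid genes in the same library (log2), minus the sham mean, 1 point per library, with open triangles for libraries with no count set at 3 fragments. Cybb lies far above its sham level in all 6 ICH and ICH+Laminaria libraries, Rac1 lies below, and the remaining members lie nearer to 0.

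ICH+Laminaria was compared with ICH to ask about the treatment, at differing days. No member was called by edgeR among 6 tested, none had an unadjusted p under 0.05, and in all 7 members the groups overlapped. Over all 16654 genes tested 0.018% were called, 560 genes (3.36%) had an unadjusted p under 0.05, and 9.02% had groups that did not overlap. The 6 log2 fold changes were negative, from -0.52 for Cybb to -0.10 for Rac1. Cybb had 4.37, 3.91 and 9.61 CPM in ICH+Laminaria 1, 2 and 3 and a 95% interval of the difference from -1.47 to 0.43. The interval was -1.32 to 0.34 for Cyba, -1.57 to 0.71 for Ncf1, -1.48 to 0.65 for Ncf4 and -1.15 to 0.81 for Rac2, each of which holds both 0 and a fall of more than 2-fold. For Rac1 it was narrower, from -0.32 to 0.12. DESeq2 also called no member.

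From lowest to highest, the ICH+Laminaria libraries spanned more than the distance between their mean and that of ICH, in all 7 members. The ICH libraries spread widely as well, for Cyba from 26.6 to 54.5 CPM and for Ncf1 from 31.1 to 93.9 CPM. Cyba had 25.5, 21.8 and 44.1 CPM in ICH+Laminaria 1, 2 and 3, Ncf1 37.2, 28.8 and 74.1 CPM, Ncf4 5.91, 3.51 and 9.66 CPM, and Rac2 20.1, 16.3 and 42.1 CPM. For 6 of the 7 members, all but Nox4, the 3 highest of the 9 libraries were ICH 2, ICH 3 and ICH+Laminaria 3, the library labelled day 6. ICH+Laminaria 2 was the lowest of the 6 libraries with blood injection for Cybb, Cyba, Ncf1, Ncf4, Rac2 and Nox4. The summed general myeloid genes had the same 3 highest libraries, at 1114, 2385 and 2181 CPM in ICH 1, 2 and 3 and 1132, 917 and 1964 CPM in ICH+Laminaria 1, 2 and 3. Relative to these genes Rac2 was at -1.58, -1.61 and -1.28 in ICH+Laminaria against -1.68, -1.74 and -1.74 in ICH, a difference of 0.23 with groups apart (exact permutation test p = 0.1, 1 of 7 members compared), but it was -0.16 with the homeostatic microglia genes as the reference. The other 6 members overlapped. Nox4 had 0.945, 0.327 and 0.487 CPM in ICH+Laminaria 1, 2 and 3, and Rac1 379, 387 and 416 CPM.

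Against the same sham libraries that served the first comparison, ICH+Laminaria lay higher for 6 of 7 members with no overlap, as did 14.9% of all 16405 genes tested, yet no member was called. Over all genes 0.0183% were called by edgeR, and 11.2% were higher with an unadjusted p under 0.05, as were 4 of the 5 tested members. The log2 fold change was 2.05 for Cyba, 2.14 for Ncf4 and 2.57 for Rac2 (standard errors 0.383, 0.387 and 0.454, adjusted p = 0.0917 from edgeR for each), 1.51 for Ncf1 (adjusted p = 0.119) and 0.05 for Rac1 (adjusted p = 0.802). DESeq2 called Cyba, Ncf1, Ncf4 and Rac2, with adjusted p from 3.46e-07 to 0.000824. Cybb fell below the filter at a mean of 0.477 FPKM. It held 262 fragments in ICH+Laminaria against 10 in sham, a ratio of 30.0. The exact interval from 16.0 to 63.2 covers counting error only, not the spread between libraries. In edgeR fits with no filter and with filterByExpr, the log2 fold change of Cybb was 4.86 (adjusted p = 0.122 and 0.103). Its difference therefore did not pass the test.

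Noxo1, an organizer of another oxidase, had a log2 fold change of 0.52 in ICH against sham (adjusted p = 0.479 from edgeR). Nox3 and Noxa1 had no count in any sham or ICH library. Nox1, Duox1, Duox2, Duoxa1 and Duoxa2 had group means of at most 0.364 CPM.

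Of 22 genes of oxidase assembly and regulation, 7 rose after ICH and none fell, and the median of the list was 0.70 on the log2 scale. The largest falls in the list, of Prkcd (log2 fold change -0.79) and Prkcb (-0.59), did not pass (adjusted p = 0.077 and 0.053 from edgeR). Dock2, which activates Rac in blood cells, rose by 2.08, Vav1, another exchange factor for Rac, by 2.03, and Hvcn1, a proton channel that balances the charge moved by the oxidase, by 1.92 on the log2 scale. Pik3cg, Pla2g4a and Prdx6 rose by 1.71, 1.41 and 1.27. S100a8, a neutrophil and monocyte protein that binds the oxidase, was called with 0.0697, 0 and 0 CPM in sham 1, 2 and 3 and 0.406, 10.2 and 1.23 CPM in ICH 1, 2 and 3, so that it passed the filter only through the ICH libraries, as Pik3cg and S100a9 did, and sham held too few counts for a fold change. Without these 3 genes 5 of 19 rose, and the median was 0.43.

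Of 14 tested genes that clear superoxide and peroxide, Prdx1 (log2 fold change 1.05), Prdx4 (0.63) and Txn1 (0.49) rose and none fell, and the median was 0.38. The superoxide dismutases Sod1 and Sod2 had log2 fold changes of 0.02 and -0.18 (adjusted p = 0.887 and 0.214 from edgeR). Of 9 other tested genes for oxidant producing enzymes, Lpo, which encodes lactoperoxidase, rose by 1.72 and Aox1, an aldehyde oxidase, by 0.86, while Nos1, the neuronal nitric oxide synthase, fell by 0.71 on the log2 scale. Nos2, the inducible synthase, had 0.986 CPM in sham and 4.60 CPM after ICH on average, and was tested only through the ICH libraries, with a log2 fold change of 2.21 that did not pass (adjusted p = 0.117 from edgeR). In both comparisons with ICH+Laminaria no gene named in these lists was called by edgeR.

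Across the 9 libraries, the genes most like Cybb in pattern were Tgfbi, Cd84, Fcgr4, Ifi207 and Cd180, by the root mean square difference of centred log2(CPM + 1) over 16518 genes. It was 0.192 for Tgfbi, an extracellular matrix protein, and 0.258 to 0.271 for the other 4, of which Cd84, Fcgr4 and Cd180 are receptors of immune cells. Tgfbi had means of 8.34 CPM in sham, 68.6 after ICH and 47.5 in ICH+Laminaria. Among the members, Rac2 (0.275) and Cyba (0.348) were closest to Cybb, followed by Ncf4 (0.512) and Ncf1 (0.595), and Nox4 (1.11) and Rac1 (1.28) were farthest. The genes most like Nox4 were Rpl15-ps2, Gm42853, Gm26384, Gm21399 and Lrrc71, at 0.121 to 0.142, with mean levels of at most 5.85 CPM in each group. These libraries share their groups, and the likeness is a description with no test. The added 1 CPM exceeds the level of Cybb in every sham library and of Nox4 in every library. It therefore shrinks their differences between libraries, and how far the order of genes depends on it was not tested.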

How the data were processed

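For every library the authors deposited counts in whole numbers and FPKM values, side by side in 1 table. The submitters' processing notes name HISAT2 2.0.4, StringTie 1.3.4, cutadapt 1.9, FastQC 0.10.1 and the rat build Rnor_6.0, but gene identifiers and coordinates are those of mouse GRCm38: 94.2% of the 55141 genes found in GENCODE M21 had the same start and end. Not given in the sources used here are the annotation release, how reads were counted and whether by strand. A deposited FPKM of 0.0001 at a count of 0 was set to 0.

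Deposited counts were compared with edgeR 4.0.16 in R 4.3.3 (TMM, quasi-likelihood test, Benjamini-Hochberg over all genes averaging 0.5 FPKM or more in the libraries compared, adjusted p under 0.05). Standard errors were taken from the F statistic. Exact permutation tests (scipy 1.17.1, Python 3.11.15) were two-sided. A count of 0 was read as up to 3 steps between low counts, and counting intervals are exact at 95% and cover counting error only. Alternatives were DESeq2 1.42.0 and its size factors in edgeR, upper-quartile scaling, limma 3.58.1 on log2(FPKM + 1) and log2(FPKM + 0.1), no filter, filterByExpr, all 9 libraries in 1 fit, counts divided by the step, the replicate number as a block, another reference list and leaving out each library.

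The members, gene lists and motifs were chosen with earlier results of these data known. Named are all members, of each pathway list the 4 called genes with the largest change, any called against the direction of the others and all tested genes of a list with 5 or fewer, and the 5 genes most like Cybb and Nox4. Other genes named (Pik3cg, Pla2g4a, Prdx6, Prkcd, Prkcb, Sod1, Sod2, Nos2, Gtf2ird2, Daglb and marker genes) were named for their role or change, after their values were seen. Some listed genes are not reported here.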

Additional observations from a re-analysis of the deposited data

How the results depend on the processing

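In ICH against sham, where 1737 genes were called (1218 higher, 519 lower), DESeq2 called 3547 (2051 and 1496), limma on log2(FPKM + 0.1) 1061 (937 and 124), and leaving out 1 library gave 0 to 2741. The edgeR count was 0 without sham 1, without ICH 2 and without ICH 3, where the unadjusted p was under 0.05 for 4092, 3762 and 3798 genes. In ICH+Laminaria against ICH, 3 genes were called by edgeR, 48 by DESeq2, 6 by limma on log2(FPKM + 0.1), 1 with all 9 libraries in 1 fit, and 0 to 1 with 1 library left out. In ICH+Laminaria against sham, 3 genes were called, 1312 by DESeq2, 5 and 1 by limma with a pseudocount of 1 and 0.1, 16 with all 9 libraries in 1 fit, 5 with counts divided by the step, 0 to 9 with 1 library left out, and 0 with DESeq2 size factors, upper-quartile scaling, no filter or filterByExpr (3023, 2901, 3732 and 3502 at an unadjusted p under 0.05). The causes were not tested.

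Libraries of the same number did not deviate together in every pair (correlations of 0.123, -0.0449 and 0.103 for ICH against sham), so the numbers were not taken as pairs. With the replicate block the counts were 839 (696 higher, 143 lower), 0 for ICH+Laminaria against ICH (538 at an unadjusted p under 0.05) and 302 for ICH+Laminaria against sham. Of the members, the block raised the adjusted p of Ncf1 in ICH against sham to 0.0504 and lowered those of Cyba, Ncf1 and Rac2 in ICH+Laminaria against sham to 0.017, 0.0461 and 0.0173.

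In ICH against sham, Cybb, Cyba, Ncf4 and Rac2 were called under all 10 alternatives that kept every library, Ncf1 under 9 of 11 and Rac1 under none. The size of the Cybb difference varied more than the calls. Its log2 fold change was 1.15 with limma on log2(FPKM + 1), 3.43 on log2(FPKM + 0.1) and 5.68 with the replicate block. The log2 fold change of Rac2 in ICH+Laminaria against ICH ran from -0.69 to 0.0903 with 1 library left out. Relative to general myeloid genes, leaving out 1 library gave Ncf4 -0.12 to 0.30 (ICH against sham), -0.0696 to 0.17 (ICH+Laminaria against ICH) and -0.10 to 0.32 (ICH+Laminaria against sham), and in ICH+Laminaria against ICH gave Ncf1 -0.0632 to 0.20 and Nox4 -0.52 to 0.34. The differences in share between ICH+Laminaria and ICH ran from -2.57 to 0.95 percentage points for Rac2 in Rac1 and Rac2, -3.01 to 1.68 for Cybb in Cybb and Nox4 and -0.53 to 0.0239 for Cybb in Cybb and Cyba. With the homeostatic microglia list as reference, the direction turned in ICH against sham for Ncf1 (0.80) and Nox4 (0.84), in ICH+Laminaria against sham for Ncf1 (0.46) and Nox4 (0.43), and in ICH+Laminaria against ICH for Ncf1 (-0.34), Ncf4 (-0.37), Rac1 (-0.0266) and Rac2 (-0.16). In that list Cx3cr1 stood at 170 CPM in ICH+Laminaria 3 against 7.79 and 12.9 CPM in the other libraries of its group, and Olfml3 at 44.5 CPM there against 94.2 and 102 CPM, and their part in these turns was not tested. None of these had passed a test. Depth limits Cybb and Nox4 in sham, at 10 and 8 fragments.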
